A study of Mus musculus with 2 samples.

Results

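TRBD1 and TRBD2 are the 2 diversity (D) genes of the mouse T cell receptor β (TRB) locus, and their use was followed here in TRB clonotypes of regenerated T cells. A clonotype is the set of reads with 1 nucleotide sequence of the CDR3, the stretch in which the V, D and J genes meet. TRB clonotypes were those whose first-listed J gene was a TRBJ gene, and each was placed by its best-scoring D gene. Of the 1640 TRB clonotypes in the thymus library, 356 were called TRBD1 and 641 TRBD2. Of the 2241 in the spleen library, 727 were called TRBD1 and 668 TRBD2. TRBD1 and TRBD2 scored equally in 98 thymus and 124 spleen clonotypes, which were kept apart as tied, and 545 and 722 clonotypes had no D hit. The clonotypes with 1 best D gene thus numbered 2392, out of 3881 TRB clonotypes and 19558 clonotypes of all chains.

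A TRB gene is assembled in a fixed order in developing thymocytes. A D gene is first joined to a J gene on each chromosome, and a V gene is then joined to the D-J product. The cut ends may be trimmed, palindromic bases may be left, and terminal transferase may add bases without a template on each side of D. TRBD1 lies upstream of both J clusters, so it can be joined to TRBJ1 or TRBJ2 genes by deletion of the DNA between them. TRBD2 lies between the clusters, downstream of all TRBJ1 genes, and by deletion it can be joined only to TRBJ2 genes.

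In the GENCODE annotation of GRCm38, TRBD1 is on the plus strand at chr6:41533201-41533212 and TRBD2 at chr6:41542163-41542176. Both are annotated as D gene segments. TRBJ1-1 starts 651 nt after the end of TRBD1, TRBD2 starts 6556 nt after the end of TRBJ1-6, and TRBJ2-1 starts 577 nt after the end of TRBD2. The germline sequences are shown because the call rests on very few bases, with the first base that differs (A6T, TRBD1 base first, counted from 1 at the 5′ end of the gene) in capitals.
TRBD1: gggacAgggggc
TRBD2: gggacTgggggggc
The genes are 12 and 14 bases long. They share their first 5 bases, and the longest stretch found in both is 6 bases, at their 3′ ends. TRBD1 has a run of 5 G and TRBD2 a run of 7 G.

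The cells were iT cells, T cells that C57BL/6 embryonic stem cells with inducible Runx1 and Hoxa9 (iR9-ESC) gave rise to in irradiated B-NDG mice, which lack lymphocytes of their own. Per the labels 15000 T cells were sorted for a library, and there was 1 library from the thymus and 1 from the spleen. The sorting gates held CD4 and CD8 single positive cells of donor type in both tissues. For markers of naïve cells (CD62L+CD44-) the study's methods list them for the spleen only, while its main text names them for both tissues. Which of these applied is not settled by the sources used here, and a difference in gate cannot be told apart from tissue. The thymus library held 1782199 TRB reads and the spleen library 2765086. With 1 library per tissue there is no replicate check, and no difference between the tissues was tested. Shares are given with Wilson 95% intervals, which cover the counting of clonotypes only. Tests within a library treated clonotypes as independent. No molecular identifiers were stated, so a clonotype's reads are not a count of cells. Between the libraries, 389 TRB clonotypes had the same CDR3 nucleotides.

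By clonotypes, TRBD2 was the more frequent D gene in the thymus, while neither D gene clearly led in the spleen. TRBD1 was called in 35.7% (32.8 to 38.7) of the 997 thymus clonotypes with 1 best D gene and in 52.1% (49.5 to 54.7) of the 1395 in the spleen. Without the clonotypes found in both libraries the shares were 30.6% and 51.6%. The spleen share depended on what was counted. It was 40.3% with at least 8 aligned D bases, 41.8% counted once per D-J join (defined below) and 47.4% among out-of-frame clonotypes. It was 56.0% with tied clonotypes given to the first-listed gene, and also among calls that cover the first base that differs. The median clonotype held 97 reads for TRBD1 and 74 for TRBD2 in the thymus, against 146 and 108 in the spleen. Shares of reads followed single clonotypes. TRBD1 clonotypes held 20.7% of the TRB reads of the thymus and TRBD2 clonotypes 20.5%. In the spleen they held 7.51% and 60.3%, and 1 TRBD2 clonotype made up 93.1% of the TRBD2 reads. Without that clonotype, TRBD1 held 64.4% of the spleen reads with 1 best D gene, against 11.1% with it.

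The clonotypes with the most reads in each class are shown to make the calls visible. Each line gives the CDR3 with the bases aligned to the D gene in capitals, palindromic bases included.
Thymus TRBD1, TRBV13-3 and TRBJ1-6: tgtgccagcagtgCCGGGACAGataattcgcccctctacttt
Thymus TRBD1, TRBV5 and TRBJ2-7: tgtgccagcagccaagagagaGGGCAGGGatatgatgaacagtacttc
Thymus and spleen TRBD2, TRBV13-3 and TRBJ2-4: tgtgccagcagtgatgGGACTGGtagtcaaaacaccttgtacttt
Spleen TRBD1, TRBV1 and TRBJ2-5: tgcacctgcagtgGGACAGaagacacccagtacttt
Spleen tied, TRBV3 and TRBJ1-3: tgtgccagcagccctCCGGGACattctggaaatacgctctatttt
Thymus tied, TRBV15 and TRBJ1-5: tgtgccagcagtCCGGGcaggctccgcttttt
The first of these led the TRBD1 clonotypes with a TRBJ1 gene in both libraries, with 164823 thymus and 21682 spleen reads. The TRBD2 clonotype with TRBJ2-4 had 209372 thymus and 1552980 spleen reads, 11.7% and 56.2% of the TRB reads. In both, V met D and D met J with no inserted base, and 7 germline D bases were kept. The tied spleen clonotype (4636 reads) ended before base 6 of the D gene, the base at which the genes differ.

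The J partners of the D genes followed the gene order. TRBD1 clonotypes had a TRBJ2 gene in 39.6% (34.7 to 44.8) of 356 cases in the thymus and 41.5% (38.0 to 45.2) of 727 in the spleen, and a TRBJ1 gene otherwise. TRBD2 clonotypes had a TRBJ2 gene in 96.3% (94.5 to 97.5) of 641 and 97.0% (95.4 to 98.1) of 668 cases. The difference between the D genes passed Fisher's exact test, two-sided, in both libraries. The gene order sets its direction in advance, so the test bears only on how well the D calls can be read. The odds ratio was 39.0 (24.4 to 64.7) in the thymus with an adjusted p of 2.32e-91, and 45.5 (28.4 to 76.8) in the spleen with an adjusted p of 1.00e-126, by the Benjamini-Hochberg method over the 6 tests of shares. Clonotypes that share a D-J join, described below, are not independent events. Counted once per D-J join, the shares for TRBD1 and TRBD2 were 47.3% and 96.4% for thymus joins and 45.8% and 96.5% for spleen joins, with adjusted p of 7.38e-34 and 3.86e-60 in Fisher's exact test. Tied and unassigned clonotypes lay between the D genes, with TRBJ2 shares of 57.1% and 45.3% for the thymus library and 52.4% and 50.4% for the spleen library.

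**Figure D1:**
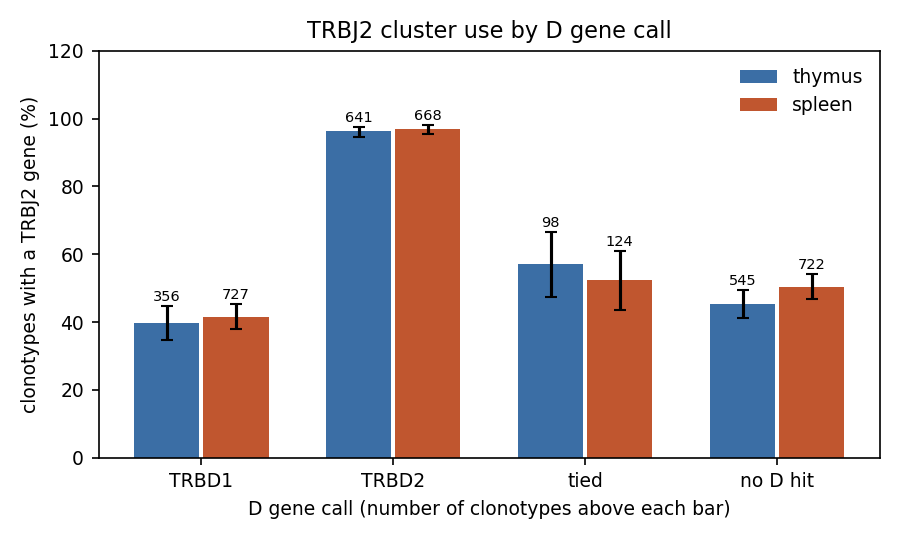
Share of TRB clonotypes with a TRBJ2 gene (%) by D gene call, in 1 thymus and 1 spleen library, with Wilson 95% intervals as error bars and the number of clonotypes above each bar. TRBD2 clonotypes stand at 96.3% and 97.0%, TRBD1 clonotypes at 39.6% and 41.5%.

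Read from the J side, TRBD1 made up 90.0% of the 239 thymus clonotypes with a TRBJ1 gene and 1 best D gene, and 95.5% of the 445 in the spleen. Among clonotypes with a TRBJ2 gene it made up 18.6% (16.0 to 21.5) of 758 and 31.8% (28.9 to 34.8) of 950. The change came at the place of TRBD2 in the locus. In the thymus the TRBD1 share ranged from 81.5% (TRBJ1-4) to 100% (TRBJ1-3, 10 clonotypes) over the TRBJ1 genes and from 11.6% (TRBJ2-5) to 36.2% (TRBJ2-2) over the TRBJ2 genes. In the spleen it ranged from 82.4% (TRBJ1-5) to 100% (TRBJ1-3 and TRBJ1-6, 32 clonotypes each), and from 18.6% (TRBJ2-4) to 48.8% (TRBJ2-2). Within the TRBJ2 cluster most intervals overlapped their neighbours in the order. TRBJ2-3 differed most between the libraries, with TRBD1 in 17.2% (10.7 to 26.5) of 87 thymus and 46.2% (38.6 to 54.0) of 158 spleen clonotypes. That gap rested on 1 D-J join, described below, which 54 spleen and 5 thymus clonotypes shared. Without it, a count added after the values were seen, TRBD1 made up 12.2% of 82 thymus and 18.3% of 104 spleen clonotypes with TRBJ2-3.

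**Figure D2:**
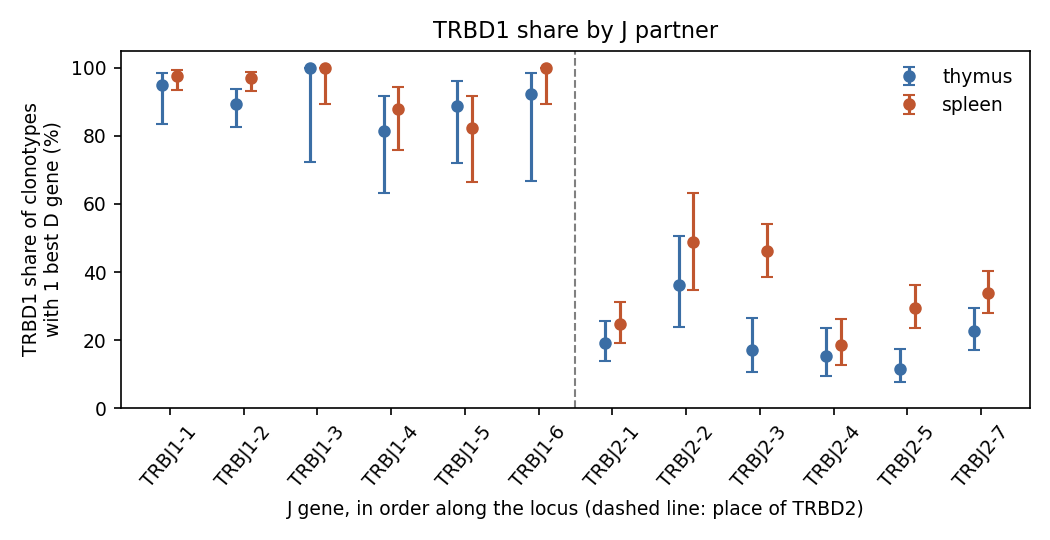
TRBD1 share (%) of the clonotypes with 1 best D gene for each J gene in its order along the locus, by library, with Wilson 95% intervals. The points lie above 80% for TRBJ1 genes and below 50% for TRBJ2 genes, with the dashed line at the place of TRBD2.

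The leading J partners differed between the D genes. TRBD1 was most often found with TRBJ1-2, in 109 thymus (30.6%) and 161 spleen clonotypes (22.1%). Clonotypes that share a D-J join, described below, weigh on these counts, and J partners were not ranked by joins. A single join gave 57 of the 109 thymus clonotypes, and joins with 57 and 38 clonotypes were among the 161 of the spleen. The next partner of TRBD1 was TRBJ2-7 in the thymus, with 41 clonotypes, and TRBJ1-1 in the spleen, with 129, of which 57 shared 1 join. TRBD2 was most often found with TRBJ2-5 in the thymus (152 clonotypes, 23.7%), followed by TRBJ2-1 and TRBJ2-7 with 140 each. In the spleen TRBJ2-7 led with 154 (23.1%), followed by TRBJ2-1 with 143. TRBJ1-3 had the fewest TRBD1 clonotypes of the thymus (10), and TRBJ2-2 the fewest TRBD2 clonotypes within its cluster in both libraries (30 and 22).

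TRBD2 was called with a TRBJ1 gene in 24 thymus and 20 spleen clonotypes, against the gene order, and these calls rested on fewer distinguishing bases. Base 6 was covered without a mismatch or gap in 5 of the 24 and 3 of the 20. Among TRBD2 clonotypes with a TRBJ2 gene it was covered in 479 of 617 (77.6%) and 530 of 648 (81.8%), and among TRBD1 clonotypes in 89.4% to 94.7%, depending on the library and J cluster. In 11 of the 24 and 11 of the 20 the alignment began after base 6, in the run of G. In 4 and 2 it held no germline base at all, since the aligner also offers the palindromes of the D gene. The clonotype of these calls with the most reads in each library is printed, with the D alignment in capitals.
Thymus TRBD2, TRBV12-2 and TRBJ1-2: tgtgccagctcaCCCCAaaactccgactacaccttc
Spleen TRBD2, TRBV15 and TRBJ1-4: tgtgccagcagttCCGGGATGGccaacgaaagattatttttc
The thymus clonotype had 219 reads and 0 germline D bases, and the spleen clonotype had 904 reads and an alignment with a mismatch or gap. Together these calls held 0.434% of the thymus and 2.44% of the spleen reads with a TRBJ1 gene and 1 best D gene. With calls limited to those that cover base 6, a rule set after the values were seen, TRBD2 clonotypes had a TRBJ2 gene in 99.0% of 484 thymus and 99.4% of 533 spleen cases, and the TRBD1 share was 40.0% and 56.0%.

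The same D-J join recurred under many V genes. A D-J join was taken as the D gene, the last germline base kept, the inserted bases, and the J gene with its bases up to the end of the CDR3, in junctions with at most 20 bases on either side of D. This definition was made after the data were seen. The 950 thymus clonotypes that could be read this way held 488 different joins, and the 1353 of the spleen held 742. A join found in 5 or more clonotypes is called recurrent here. There were 33 recurrent joins in the thymus library and 40 in the spleen library, and 370 (38.9%) and 453 (33.5%) of the clonotypes carried one. They took up 57.1% and 46.5% of the TRBD1 clonotypes and 29.0% and 19.3% of the TRBD2 clonotypes, a difference that was not tested. Each recurrent join was found with 2 to 19 V genes (thymus) or 3 to 19 V genes (spleen). At the other end, 363 thymus and 555 spleen joins were found in 1 clonotype.

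In both libraries the join with the most clonotypes was TRBD1 up to base 6 joined without insertion to TRBJ1-2 trimmed by 1 base. It was carried by 57 clonotypes with 19 V genes in the thymus and 57 clonotypes with 19 V genes in the spleen, of which 43 and 41 were productive. In the spleen TRBD1 up to base 10, followed by CA and by TRBJ1-1 with 1 palindromic base, was also carried by 57 clonotypes, with 14 V genes, and by 13 thymus clonotypes. TRBD1 up to base 8 joined without insertion to TRBJ2-3 was carried by 54 spleen clonotypes and 5 thymus clonotypes. The leading TRBD2 join was the complete 3′ end of the gene followed by AA and by TRBJ2-1 trimmed by 7 bases, with 33 clonotypes and 14 V genes in the thymus and 15 clonotypes and 9 V genes in the spleen. TRBD2 up to base 13, followed by GAC and by TRBJ2-7, was carried by 17 thymus and 6 spleen clonotypes, and all of them were productive.

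Recurrence was not limited to joins without inserted bases. Of the recurrent joins, 16 thymus and 10 spleen joins held 2 or more inserted bases, in 175 and 118 clonotypes. The clonotypes of 1 thymus join with 5 inserted bases are printed, with the stretch from the D gene to the start of J in capitals. Each ends in the same letters, from TRBD1 up to base 9 through ATATG into TRBJ2-7, and each has another V gene.
TRBV5, 9922 reads: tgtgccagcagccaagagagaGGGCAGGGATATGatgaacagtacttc
TRBV12-1, 619 reads: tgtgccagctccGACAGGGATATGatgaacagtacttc
TRBV24, 133 reads: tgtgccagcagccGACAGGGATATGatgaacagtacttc
TRBV13-3, 133 reads: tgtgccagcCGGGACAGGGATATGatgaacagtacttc
TRBV15, 64 reads: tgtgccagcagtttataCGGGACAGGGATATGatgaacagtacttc
TRBV26, 49 reads: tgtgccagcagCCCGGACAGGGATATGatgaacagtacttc
TRBV22, 42 reads: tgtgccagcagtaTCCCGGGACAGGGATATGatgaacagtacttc
TRBV3, 16 reads: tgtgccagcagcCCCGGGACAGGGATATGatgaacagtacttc
Of these 8 clonotypes 3 were productive. Their V-D sides, taken as the V gene and its end, the inserted bases and the start of D together, differed in all 8. The start of D alone took only 2 positions. The spleen held 1 clonotype with this join. Mixing of V and D-J ends during amplification was not tested.

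Many joins were found in both libraries. The 225 joins in common were carried by 635 thymus clonotypes (66.8%) and 714 spleen clonotypes (52.8%). Of these, 430 and 509 had a CDR3 found in that library only, so that the D-J end was in common and the V-D side was not. Of the recurrent joins, 31 of 33 thymus and 35 of 40 spleen joins were also found in the other library. Over all joins these counts were 225 of 488 and 225 of 742. A join with more clonotypes has more chances to be found again, so the counts do not set recurrent joins apart. The spleen library also held more clonotypes with a join, 1353 against 950. Joins in common were carried by 83.0% of thymus and 58.4% of spleen TRBD1 clonotypes and by 58.0% and 46.7% of TRBD2 clonotypes. Counted once per join, TRBD1 made up 26.8% (23.1 to 30.9) of the thymus and 41.8% (38.3 to 45.4) of the spleen joins, below the 35.4% and 52.2% over the same clonotypes.

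**Figure D3:**
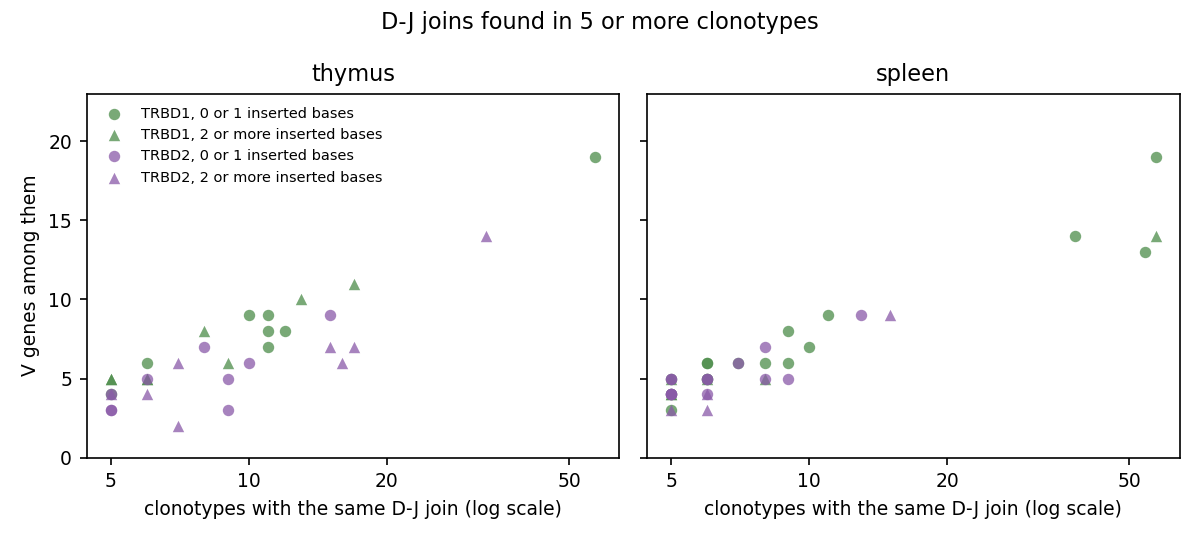
Each point is a D-J join found in 5 or more clonotypes of a library, by the number of clonotypes (log axis) and of V genes among them, colored by D gene and shaped by the number of inserted D-J bases. Joins with 57 clonotypes and 19 V genes stand at the top right of both panels, and joins with 2 or more inserted bases reach 14 V genes in both.

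Both D genes were found with many of the same leading V genes, in unequal shares. The leading V genes of TRBD1 were TRBV19 (38 clonotypes), TRBV16 (31) and, with 28 each, TRBV13-2 and TRBV13-3 in the thymus, and TRBV19 (89), TRBV13-2 (77) and TRBV20 (66) in the spleen. Those of TRBD2 were TRBV13-2 (81), TRBV19 (75) and TRBV5 (58) in the thymus and TRBV19 (110), TRBV16 (69) and TRBV13-2 (59) in the spleen. TRBV13-2 was found in 7.87% of TRBD1 and 12.6% of TRBD2 clonotypes of the thymus, and TRBV13-3 in 7.87% and 3.90%. In the spleen these were 10.6% and 8.83% for TRBV13-2, and 5.78% and 5.54% for TRBV13-3. Differences in V partners were not tested. In 16 V genes with at least 20 such clonotypes in each library, a minimum set after the values were seen, the TRBD1 share ranged from 23.6% (TRBV15) to 73.9% (TRBV29) in the thymus and from 37.9% (TRBV15) to 85.2% (TRBV29) in the spleen. It was the higher one in the spleen for 16 of 16, although for some by less than 1 percentage point. Over all V genes the share was 35.7% and 52.1%. Recurrent D-J joins run across V genes, so these are not 16 separate observations. Under the minimum the direction was mixed. TRBV12-1 had TRBD1 in 23.8% of 21 thymus and 22.2% of 18 spleen clonotypes, and TRBV14 in 38.5% of 13 and 60.0% of 25. TRBV29, chosen after its values were seen, had 17 TRBD1 and 6 TRBD2 thymus clonotypes, and 46 and 8 spleen clonotypes.

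TRBD2 kept more germline bases than TRBD1, as a longer gene can. The retained D length was 6.89 ± 2.24 nt (SD, n = 356) for TRBD1 and 9.23 ± 2.57 nt (SD, n = 641) for TRBD2 in the thymus, and 7.10 ± 1.96 nt (SD, n = 727) and 8.89 ± 2.37 nt (SD, n = 668) in the spleen. The whole gene was kept in 2.03% of TRBD1 and 3.65% of TRBD2 clonotypes in the thymus, and in 1.26% and 2.57% in the spleen, over clonotypes with a germline D base. The shortest alignments held 5 bases, so that shorter remnants are counted as no D hit and the means are those of callable remnants. In the called remnants the ends were trimmed unequally. TRBD1 lost 1.41 and 1.65 bases from its 5′ end and 3.46 and 3.14 from its 3′ end in thymus and spleen on average. TRBD2 lost 2.70 and 2.65 bases from its 5′ end and 1.91 and 2.38 from its 3′ end. The 3′ end was whole in 10.2% and 7.13% of TRBD1 but in 27.6% and 21.0% of TRBD2 clonotypes. A remnant that lies wholly within the run of G cannot be placed uniquely. A TRBD1 remnant that starts in this run is also found in TRBD2, so its germline bases alone cannot give a TRBD1 call. With a TRBJ2 gene the alignment began in the run in 79 thymus and 73 spleen TRBD2 clonotypes, against 0 and 0 for TRBD1. With a TRBJ1 gene these were 11 and 11, against 1 and 0. The call thus limits the trimming that can be seen differently for each D gene, and these means cannot separate that limit from trimming itself. Retained lengths and trimming were not tested.

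**Figure D4:**
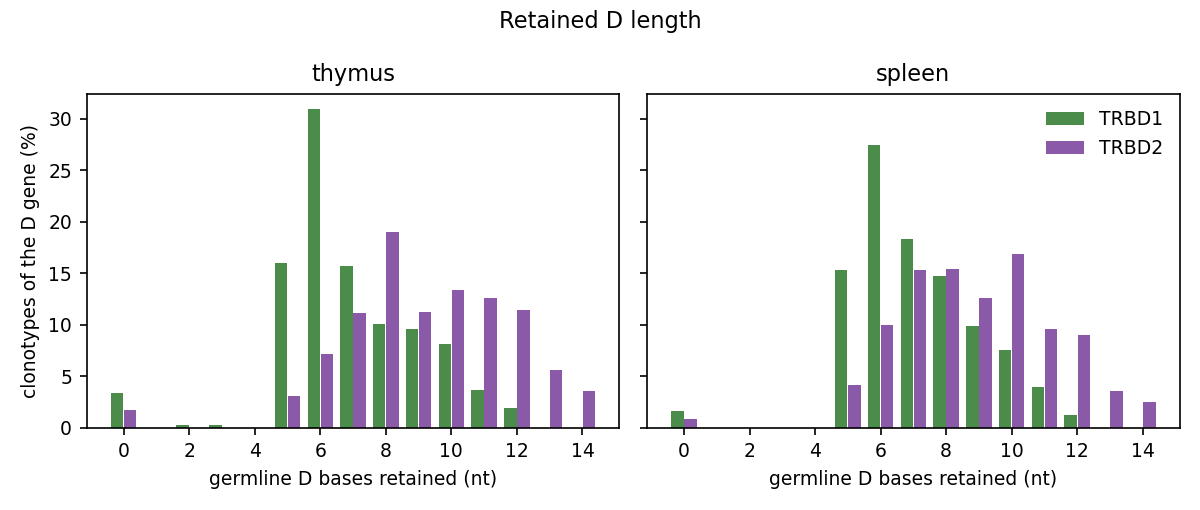
Share of TRBD1 and TRBD2 clonotypes (%) by the number of germline D bases retained, in the thymus and spleen libraries. TRBD1 has its mode at 6 bases in both, and TRBD2 spreads up to the full 14 bases. Clonotypes at 0 were aligned to palindromic bases only.

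Most junctions held few inserted bases. The median V-D insertion was 1 nt for both D genes in both libraries. The median D-J insertion was 1 nt for TRBD1 and 2 nt for TRBD2 in the thymus, and 0 and 1 nt in the spleen. V met D with no inserted base in 40.7% of TRBD1 and 36.2% of TRBD2 clonotypes of the thymus, and in 43.7% and 40.7% in the spleen. D met J with no inserted base in 49.2% (44.0 to 54.3) and 35.3% (31.7 to 39.0) in the thymus, and in 61.8% (58.2 to 65.2) and 47.6% (43.8 to 51.4) in the spleen. These intervals treat clonotypes with the same D-J join as separate. A single TRBD1 join gave 57 of the 175 such thymus clonotypes, and joins with 57, 54 and 38 clonotypes were among the 449 of the spleen. The largest TRBD2 joins without insertion had 15 thymus and 13 spleen clonotypes. Neither side had an insertion in 20.2% of TRBD1 and 14.2% of TRBD2 clonotypes of the thymus and in 27.0% and 22.0% in the spleen.

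Over all clonotypes, no difference in mean insertion between the D genes passed a two-sided permutation test. The mean V-D insertion was 3.17 nt for TRBD1 and 3.66 nt for TRBD2 in the thymus, a difference of 0.485 ± 0.827 nt (SE, permutation test, adjusted p = 0.592). In the spleen it was 2.45 and 4.06 nt, a difference of 1.61 ± 0.746 nt (SE, permutation test, adjusted p = 0.105). These V-D values depended on the clonotypes taken. With at least 2 reads the difference was -1.07 nt in the thymus and -0.536 nt in the spleen, and with at least 10 reads -0.772 and -0.818 nt, in the opposite direction and not past the threshold. The spleen difference passed the threshold under 4 other alternatives, with values of 1.73 to 2.12 nt (permutation test, adjusted p = 0.00100 to 0.0378). The mean D-J insertion was 2.47 and 2.15 nt in the thymus, against 1.63 and 1.99 nt in the spleen, with differences of -0.318 ± 0.662 and 0.364 ± 0.466 nt (SE, permutation test, adjusted p = 0.592 in both). The 4 tests were adjusted together. These means were set by a few junctions of over 20 bases, found in 12 TRBD1 and 18 TRBD2 clonotypes of the thymus and 16 and 19 of the spleen. Without them, an alternative added after the data were seen, the mean D-J insertion was 1.17 nt for TRBD1 and 1.62 nt for TRBD2 in the thymus (permutation test, adjusted p = 8.00e-05) and 0.861 and 1.11 nt in the spleen (permutation test, adjusted p = 0.00200). Counted once per D-J join it was 1.29 and 1.72 nt in the thymus (permutation test, adjusted p = 0.0261) and 1.16 and 1.35 nt in the spleen (permutation test, adjusted p = 0.110). The mean V-D insertion without the long junctions was 1.60 and 1.66 nt in the thymus, against 1.36 and 1.46 nt in the spleen (permutation test, adjusted p = 0.691 and 0.460).

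Most long junctions fell into a pair of kinds. In 7 thymus and 12 spleen clonotypes the CDR3 ran through the end of an upstream J gene into the J gene that was called. The upstream gene was TRBJ1-1 before TRBJ1-2 in 7 and 10 of them, and TRBJ2-4 before TRBJ2-5 in 2 spleen clonotypes. The stretch between the J genes equalled their distance in the genome, 89 and 42 nt, in 7 of 7 and 12 of 12. The letters of that stretch were not compared with the genome. These clonotypes held 1367 and 818 reads and none was productive (0 of 7 and 0 of 12). They made up 7 of the 12 long TRBD1 junctions of the thymus and 10 of the 16 of the spleen.

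A second kind held the D gene with bases that precede it. Of 29 clonotypes with an untrimmed 5′ D end and at least 20 bases between V and D, 22 had the same 10 bases before D. Any CDR3 with these bases was then counted, which gave 17 thymus and 15 spleen clonotypes, of which 17 and 14 had 1 read. In all of them the D gene's first 5 bases followed, and base 6 was that of TRBD1 in 8 and 5 and that of TRBD2 in 9 and 10. The deposited call went against this base in 5 thymus and 4 spleen clonotypes. TRBD2 was called before a TRBD1 base in 4 and 4, and TRBD1 before a TRBD2 base in 1 and 0. In 3 and 5 clonotypes the deposited D alignment lay upstream of the 10 bases, and in 2 and 4 of those it held only palindromic bases. The V hit of these clonotypes scored a median of 53.0 and 56.0 and at most 65.0, against medians of 1071 and 1070 for the other TRB clonotypes, and TRBV16 was the gene named in 12 and 7. Examples are printed from the 10 bases on, with the D gene that follows them in capitals and named by its base 6. Both clonotypes printed as TRBD1 were called TRBD2.
Thymus and spleen TRBD1 with TRBJ2-3: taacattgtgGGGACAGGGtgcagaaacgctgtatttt
Thymus TRBD2 with TRBJ2-3: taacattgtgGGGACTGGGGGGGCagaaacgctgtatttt
Spleen TRBD2 with TRBJ2-4: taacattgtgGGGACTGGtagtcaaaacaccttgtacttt
Here a D gene was joined to J while no V gene was found next to it. An unjoined D gene keeps its recombination signal on the side of V, but the 10 bases were not placed on the genome here. Such junctions made up 12 of the 18 long junctions called TRBD2 in the thymus and 14 of the 19 in the spleen, but base 6 was that of TRBD2 in only 8 and 10 of them.

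TRBD1 and TRBD2 clonotypes were productive at similar rates. A productive clonotype had a reading frame through the CDR3 without a stop codon. The productive share was 74.2% (69.4 to 78.4) for TRBD1 and 75.0% (71.5 to 78.2) for TRBD2 in the thymus, with an odds ratio of 1.05 (0.768 to 1.42) for TRBD2 against TRBD1. In the spleen it was 79.1% (76.0 to 81.9) and 75.7% (72.4 to 78.8), with an odds ratio of 0.826 (0.637 to 1.07). Neither difference passed Fisher's exact test, two-sided (adjusted p = 0.761 and 0.168). The share changed little with the J cluster, from 72.3% to 75.3% for TRBD1 in the thymus and from 77.2% to 80.5% in the spleen.

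The D genes can be read in all 3 frames without a stop codon, and the frames of TRBD1 were used unequally. Frames are given for clonotypes with a germline D base and no mismatch or gap. With the first D base in the second codon position, TRBD1 encodes aspartate, arginine and glycine, and this frame was found in 21.0% (16.3 to 26.5) of 243 productive thymus and 19.6% (16.4 to 23.1) of 542 productive spleen clonotypes. It was found in 35.0% (25.5 to 45.9) of 80 and 40.9% (33.0 to 49.2) of 137 clonotypes that were not productive. With the first base in the first position, both D genes encode glycine, threonine and glycine residues, and TRBD1 was read so in 31.3% of productive thymus and 44.6% of productive spleen clonotypes. In the third position TRBD1 encodes glycine, glutamine and glycine, which was found in 47.7% and 35.8%. TRBD2 frames lay closer together by clonotypes, from 31.4% to 34.7% of 430 productive thymus and from 29.3% to 38.0% of 468 productive spleen clonotypes. In TRBD2 the second frame, which encodes aspartate, tryptophan and glycine, was found in 34.0% and 38.0%, and the third, with leucine, in 34.7% and 29.3%. In a productive clonotype the D-J join fixes the frame of D, so that recurrent joins weigh on these shares. Counted once per join, the second frame of TRBD1 was found in 25.7% (18.4 to 34.6) of 109 thymus and 25.8% (20.9 to 31.4) of 264 spleen joins in productive clonotypes. TRBD1 frames then ranged from 25.7% to 41.3% in the thymus and from 25.8% to 42.0% in the spleen, and TRBD2 frames from 26.5% to 38.1% of 257 thymus and from 27.7% to 38.6% of 321 spleen joins. The contrast between the D genes was thus smaller by joins than by clonotypes. These shares are descriptions and were not tested.

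**Figure D5:**
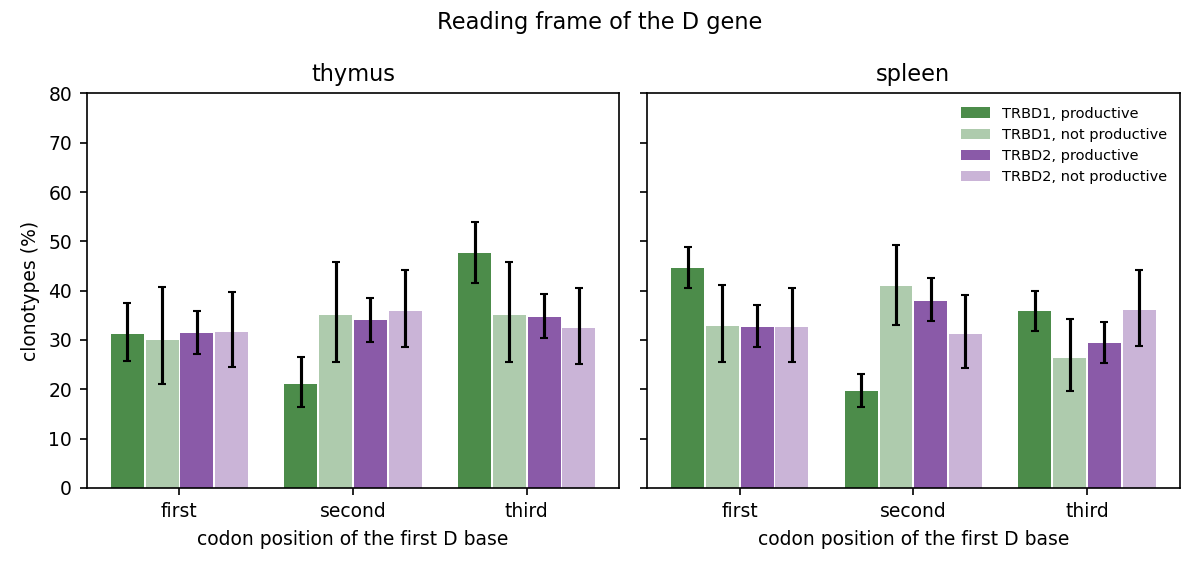
Share of clonotypes (%) by the codon position of the first base of the D gene, for TRBD1 and TRBD2 in productive and other clonotypes of both libraries, with Wilson 95% intervals. The second position holds 21.0% and 19.6% of productive TRBD1 clonotypes, below 35.0% and 40.9% of those that were not productive.

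TRB clonotypes without a D hit made up 33.2% (31.0 to 35.5) of the thymus and 32.2% (30.3 to 34.2) of the spleen clonotypes. Their V and J ends lay close together. The median distance was 4 nt in both libraries, and it was under 5 nt, the shortest alignment that was called, in 318 of 545 (58.3%) and 449 of 722 (62.2%). In 79 and 101 of these the aligned V and J ends overlapped. The median CDR3 was 39 nt long, against 42 nt for TRBD1 and 45 nt for TRBD2 in both libraries. The clonotype with the most reads is shown, with the bases between V and J in capitals.
Thymus and spleen, TRBV19 and TRBJ2-4: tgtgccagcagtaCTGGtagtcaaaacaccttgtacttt
It held 475490 thymus reads (26.7% of TRB reads) and 327215 spleen reads (11.8%), and its 4 bases were too few to be called. Such clonotypes held 57.2% of the TRB reads of the thymus and 31.3% of the spleen.

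Clonotypes with a D hit were more often productive than those without a D hit, which may still hold D bases too few to be called. The shares were 74.7% (72.0 to 77.2) of 1095 against 68.8% (64.8 to 72.6) of 545 in the thymus, an odds ratio of 1.34 (1.06 to 1.69), and 77.8% (75.7 to 79.8) of 1519 against 72.6% (69.2 to 75.7) of 722 in the spleen, an odds ratio of 1.33 (1.07 to 1.63). Both passed Fisher's exact test, two-sided (adjusted p = 0.0201 and 0.0138). Among clonotypes of at least 2 reads neither did, with differences of 4.78 and 3.48 percentage points (Fisher's exact test, adjusted p = 0.110 and 0.113). Without the clonotypes found in both libraries neither did (Fisher's exact test, adjusted p = 0.103 in both).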

How the data were processed

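TCR transcripts of sorted iT cells were amplified with a commercial mouse TCR α/β profiling kit and sequenced as paired reads. Per the study's methods the authors used MiXCR to call clonotypes. The deposited read count of a clonotype was not normalized, and the deposited fraction relates it to the library's total reads. The fraction equalled count over total and was not used further. Filters are not given in the sources used here.

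D genes were taken from the deposited hits, D ends and insertions from the deposited alignments and reference points. MiXCR pads each D gene with its palindrome, and only germline bases were counted as retained. The lowest D score was 25. J genes of read-through were found by a match of 15 bases. Germline sequences and coordinates came from GENCODE vM21 (GRCm38); no genome sequence was used. Depth was 2700370 and 4585403 reads in all, and 3 reads amount to 0.000168% and 0.000108% of TRB reads.

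Shares of 2 classes were compared by Fisher's exact test and mean insertions by a permutation test with 100000 resamples, both two-sided within a library, at a threshold of 0.05 after Benjamini-Hochberg adjustment over 6 and 4 tests. Each alternative was adjusted over the tests of each kind that it kept, which were fewer for some alternatives. Alternatives were read minimums, shared, near-identical, productive or out-of-frame clonotypes, D alignment length, ties and weighting by reads. Added after the data were seen were long junctions, retained bases, base 6, D-J joins counted once and TRBJ2-3 without 1 join. Named V and J genes were the leading partners of each D gene, and printed clonotypes those with the most reads in each class. The members and lists were chosen with earlier results of these data known. The parser and tests were tested on simulated data. Python 3.11.15, numpy 2.4.6, pandas 2.3.3, scipy 1.17.1 and matplotlib 3.10.9 were used.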

Additional observations from a re-analysis of the deposited data

Results flagged for a closer look

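The productive share of TRBD2 minus that of TRBD1 was 0.882 percentage points in the thymus and -3.34 in the spleen, in opposite directions. The thymus value turned to -0.0579 with at least 8 aligned D bases, -0.359 with at least 5 retained germline bases and -0.232 with base 6 covered. The mean D-J insertion of TRBD2 minus that of TRBD1 was -0.318 nt in the thymus and 0.364 nt in the spleen, also in opposite directions. Without junctions of over 20 bases, an alternative added after the data were seen, it was 0.455 and 0.253 nt, both past the threshold in the permutation test. With at least 2 reads it was -0.786 and -0.278 nt, so that the opposite directions were lost both ways. With 1 library per tissue the difference between the libraries was not tested in either case, and none of the 4 values over all clonotypes passed its own test.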

How the results depend on the processing

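Of 230 recomputed values, 164 kept their direction and side of the threshold or moved by less than their interval. The TRBJ2 share of TRBD2 minus that of TRBD1 kept its direction and passed Fisher's exact test under each alternative run, planned or added. Differences below are TRBD2 minus TRBD1, in nt for mean insertions and percentage points for shares, with the thymus before the spleen, and the cause of a change was not tested unless named.

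With at least 2 reads the V-D difference became -1.07 and -0.536, the D-J difference in the spleen -0.278, and the productive share with a D hit minus that without 4.78 and 3.48, neither past the threshold. The TRBJ2 share of thymus TRBD2 clonotypes was 97.6%. With at least 10 reads these were -0.772 and -0.818, -0.361, 4.08 and 2.20, and 97.9%. Without clonotypes in both libraries the D hit share was 69.6% and 69.9%, the thymus TRBD1 share 30.6%, the productive difference with and without a D hit 5.26 and 4.18, and the spleen V-D difference 2.12, now past the threshold. Among productive clonotypes the thymus D-J difference was 0.507 and past the threshold. Among out-of-frame clonotypes the D hit share was 60.9% and 63.4%, the spleen TRBD1 share 47.4%, the TRBJ2 share of spleen TRBD1 clonotypes 46.9%, and the spleen D-J difference -0.00805. With at least 8 aligned D bases, which the shorter gene reaches less often, the TRBD1 share was 24.2% and 40.3%, the TRBJ2 share of thymus TRBD2 clonotypes 97.5%, the thymus V-D difference -0.892 and the thymus productive difference -0.0579. With tied clonotypes given to the first-listed gene, which was TRBD1, the TRBD1 share was 41.5% and 56.0%, its retained length 6.37 and 6.77 nt, and the spleen V-D difference 1.77, past the threshold. 

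Weighted by reads, the D hit share of the thymus was 42.8%, the TRBD1 share 50.2% and 11.1%, the TRBJ2 share of TRBD1 16.7% and 36.8%, and that of TRBD2 99.6% and 99.8%. Without the clonotype with the most reads of each library, the D hit share was 58.4% and 28.7%, the TRBD1 share 50.2% and 64.4%, and the TRBJ2 shares of TRBD1 16.7% and 36.8%, with 99.6% for thymus TRBD2.

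Of the alternatives added after the data were seen, leaving out junctions of over 20 bases gave D-J differences of 0.455 and 0.253, both past the threshold. With at least 5 retained germline bases the spleen V-D difference was 1.73, past the threshold, the spleen D-J difference -0.0945 and the thymus productive difference -0.359. With base 6 covered the TRBD1 share was 40.0% and 56.0%, the TRBJ2 share of TRBD2 99.0% and 99.4%, the spleen V-D difference 1.90, past the threshold, the spleen D-J difference -0.445 and the thymus productive difference -0.232. Counted once per D-J join, the TRBD1 share was 26.8% and 41.8%, the TRBJ2 share of TRBD1 47.3% and 45.8%, and the thymus D-J difference 0.433, past the threshold.

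No paired analysis was possible because each tissue has 1 library. There was no replicate to leave out for the same reason. Clonotypes were counted without normalization, and the libraries were not brought to equal depth. Depth can bear on the numbers of clonotypes, recurrent joins and joins in common. Reads without molecular identifiers, clonotypes that share a D-J join and D calls from 5 bases limit the shares.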

Other observations

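Sharing of clonotypes between the libraries varied with the D call. The thymus clonotypes whose CDR3 was also in the spleen library were 115 TRBD1 clonotypes (32.3% of that class), 94 TRBD2 (14.7%), 15 tied (15.3%) and 165 without a D hit (30.3%). As shares of the spleen classes they were 16.0%, 14.1%, 12.1% and 22.7%. Of the 389 CDR3 in common, 388 had the same D call in both libraries. The D gene is aligned to these same nucleotides, so this is no check of the calls. The shared clonotypes had a higher TRBD1 share than the others in the thymus library, and the cause was not tested.

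No clonotype of another chain had a TRBD hit, 0 of 6092 in the thymus and 0 of 9585 in the spleen.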
